A study of Mus musculus with 6 samples.

Results

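The cytochrome P450 family was taken as every gene whose symbol in the platform annotation starts with Cyp followed by a number, a letter and a number, with Cyp51 left out. This gave 72 genes of the 18193 represented on the arrays, named by 95 probe sets, and each gene was read from its brightest probe set, by mean log2 signal. The groups were Ezh1/2 2KO basal epidermis, Ezh1/2 WT basal epidermis, Ezh1/2 2KO matrix, Ezh1/2 WT matrix, Ezh1/2 2KO ORS and Ezh1/2 WT ORS, with 1 Affymetrix array each. All were FACS-sorted skin cells of mice aged 14 days on a mixed C57B6 and CD1 background. The 2KO basal epidermis sample is labelled female and the other 5 are labelled as both sexes. The matrix is the dividing part of the hair bulb, and the outer root sheath (ORS) is the outermost epithelial layer of the follicle. Either Ezh1 or Ezh2 serves as the histone methyltransferase of the Polycomb complex PRC2, and 2KO stands for the loss of both. Not given in the labels are the cells that lost the genes, the driver of the deletion, how many mice were pooled, and whether mice were shared between populations. With 1 array per group there was no replicate check, no test was made, and every difference below is a difference between those arrays.

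P450 enzymes are haem proteins that use oxygen and electrons to hydroxylate or epoxidise small lipophilic molecules. Some make or clear hormones and signals, such as steroids, bile acids, vitamin D and retinoic acid, and others oxidise drugs, pollutants and fatty acids. In skin they act on barrier lipids, retinoids, vitamin D and chemicals that enter through the surface. Most families that handle foreign chemicals are expressed chiefly in liver.

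Values are MAS5 signals on a linear scale. The floor was set at 83.2 signal units, the median signal of the non-control probe sets on the 6 arrays taken as one. Signals under it were raised to it, a ratio with 1 side under it is written as at least N-fold, and a gene under it on both arrays was not measured in that pair. A difference of at least 2-fold was called, the threshold named in the series text. The brightest Ezh2 probe set read 432, 1725 and 378 on the 2KO basal epidermis, matrix and ORS arrays, against 2563, 3578 and 2151 on the WT arrays of the same populations. Ezh1 read 57.4, 89.4 and 51.6 on those 2KO arrays and 401, 317 and 380 on the WT arrays. By ratio, the 2KO signal of Ezh2 was closest to that of WT in matrix. The probes may lie outside the deleted parts, and how far the residual signal measures deletion was not tested. The array labelled female, 2KO basal epidermis, read 1194 for the Y-linked gene Eif2s3y, against 580 on WT basal epidermis, which goes against an all-female sample. It also read 7837 for Xist, an RNA of female cells, against 9426 on WT basal epidermis, so signals of both sexes were present. Xist read 4482 in 2KO matrix against 8962 in WT, and 9927 against 8358 in the ORS pair. The Y-linked Eif2s3y signal was also higher on the other 2KO arrays (1883 against 612 in WT matrix, 920 against 295 in WT ORS). Kdm5d, also Y-linked, read 217, 303 and 162 on the 2KO basal epidermis, matrix and ORS arrays, against 83.4, 92.4 and 91.2 in WT. The part of sex in the P450 differences between 2KO and WT was not tested.

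The 2KO arrays differed from their WT partners in markers of other cells too, and the part of these differences in the P450 results was not tested. In ORS all 7 matched sebocyte markers were at least 2-fold lower in 2KO, with a summed signal of 14789 against 54579 in WT. That sum was 12964 against 18726 in basal epidermis (3 of 7 lower, 0 higher) and 16633 against 22119 in matrix (1 of 6 measured lower, 0 higher). In matrix 6 of 8 ORS markers were at least 2-fold higher (42793 in 2KO against 11388 in WT), as were 4 of 7 basal markers, 6 of 7 measured fibroblast markers, 4 of 7 measured immune markers and 4 of 4 measured muscle markers, and 0 of these 5 lists' genes were lower. Of 9 matrix markers 3 were lower there and 1 higher. In basal epidermis 3 of 6 measured immune markers were lower and 0 higher, 2 of 8 ORS markers were higher and 0 lower, 1 of 7 fibroblast markers was higher and 0 lower, and of 8 measured matrix markers 2 were higher and 3 lower. In ORS the matrix markers had 2 higher and 3 lower of 9, the ORS markers 2 higher and 0 lower of 8, the immune markers 1 higher and 1 lower of 5 measured, and the fibroblast markers 1 higher and 0 lower of 8. Of the melanocyte markers 1 of 5 was lower in matrix, 1 of 5 in ORS and 0 of 4 in basal epidermis, with 0 higher. Of adipocyte markers 1, Fabp4, was measured and was lower in matrix, while Adipoq and Lep were below the floor on all 6 arrays. Basal markers in basal epidermis and ORS, muscle markers in those populations and endothelial markers in all 3 had 0 genes at 2-fold.

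Most P450 genes gave no usable signal in these cells. Above the floor were 18 P450 genes on the 2KO basal epidermis array and 20 on its WT partner, 13 and 9 in matrix, and 19 and 24 in ORS. Over all genes the share above the floor was 57.4% to 63.6% per array, against 12.5% to 33.3% of P450 genes. In all, 31 of the 72 were above it on at least 1 array, 5 on all 6 and 41 on none, while 9478 of all 18193 genes were above it on all 6. The WT matrix array had the fewest P450 genes and the WT ORS array the most.

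**Figure D1:**
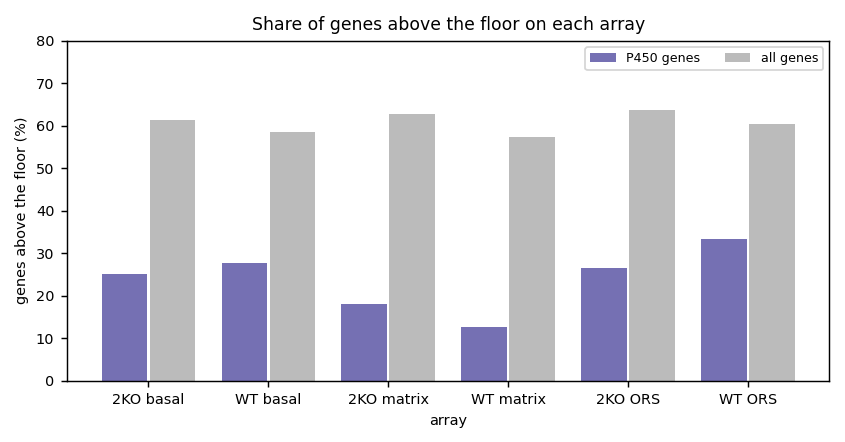
Bars give the percentage of genes with a signal above the floor on each of the 6 arrays, for the 72 P450 genes and for all 18193 genes. P450 genes stay between 12.5% and 33.3%, and the lowest bar is WT matrix.

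Of 11 Cyp2c genes only Cyp2c29 passed the floor, on the 2KO matrix array at 93.5, and of 8 Cyp2d genes only Cyp2d22 did, on the WT ORS array at 92.9. The other Cyp2d22 probe set passed it on both ORS arrays, at 102 in 2KO and 97.3 in WT. None of the 3 Cyp4a genes, and none of Cyp2e1, Cyp2a12, Cyp2r1, Cyp2u1, Cyp4x1 and Cyp7a1, passed it on any array. Of 5 Cyp3a genes only Cyp3a13 passed. The steroid synthesis genes Cyp11a1, Cyp11b1 and Cyp11b2 stayed below it, with a highest signal of 69.1, for Cyp11a1 on WT matrix. By role, above the floor on at least 1 array were 2 of 5 genes of steroid synthesis, 5 of 6 of cholesterol and bile acid metabolism, 2 of 3 of vitamin D metabolism, 2 of 2 that clear retinoic acid, 2 of 3 classical targets of the aryl hydrocarbon receptor, 9 of 34 of the other Cyp2 genes and 7 of 13 Cyp4 genes.

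Of 22 P450 genes measured in basal epidermis, 2 were higher in 2KO by 2-fold or more and 5 were lower by as much. The same calls covered 6.59% (higher) and 4.09% (lower) of all 11527 measured genes. In matrix 4 were higher and 1 lower of 16 measured, against 9.03% and 1.62% of all genes. In ORS 4 were higher and 6 lower of 26 measured, against 8.16% and 4.75%. A gene under the floor in one genotype is measured only if it is above it in the other, so the counts were also made over genes above it on both arrays. They were then 2 higher and 5 lower of 16 in basal epidermis (5.01% and 3.97% of all such genes), 2 higher and 0 lower of 6 in matrix (7.15% and 1.63%), and 3 higher and 3 lower of 17 in ORS (6.53% and 4.61%). The median log2 ratio of the P450 genes above the floor on both arrays was -0.78 (basal epidermis), 0.44 (matrix) and -0.34 (ORS), beside 0.02, -0.01 and -0.02 over all such genes. Over the genes measured on at least 1 array the medians were -0.57, 0.23 and -0.31. Scaling by the hybridisation controls turned the matrix median negative, at -0.14, and moved that of all genes there to -0.58. With a floor at the 25th percentile of signals the medians of basal epidermis and ORS turned positive, at 0.21 and 0.01. With one at the 75th percentile that of matrix turned negative, at -0.31, but only 2 P450 genes were measured there. In ORS the split of calls was 0 higher and 10 lower with array medians made equal, when that of all genes was 641 and 999, beside 979 and 570 in the main setting. It was 0 and 8 both with hybridisation control scaling (764 and 797 over all genes) and with quantile normalization (876 and 683). The ORS calls gained were Cyp2j9 under all 3, Cyp2s1 under array median and hybridisation control scaling, Cyp39a1 with array medians made equal, and Cyp4f13 with array medians made equal and by quantiles. In matrix the split was 2 and 1 with array medians made equal (711 and 574 over all genes), 2 and 2 with hybridisation control scaling (464 and 2131) and 3 and 1 with quantile normalization (957 and 240), beside 1053 and 189 over all genes in the main setting.

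In all, 17 of the 72 genes were at least 2-fold apart in at least 1 population, and only the 31 above the floor on some array could be. The share of all genes called in any population, or in several, was not counted. The counts given here are therefore no result about the family. No gene was called the same way in all 3. Cyp17a1, Cyp2b10 and Cyp2g1 were lower in 2 populations each, Cyp4f39 was higher in 2, and Cyp1b1 was higher in one and lower in another. Just past 2-fold stood Cyp2g1 in matrix (at least 2.03-fold), Cyp1b1 (2.05-fold), Cyp4f16 (2.05-fold) and Cyp27b1 (at least 2.06-fold) in ORS. Just short of it were Cyp2j9 in ORS (1.92-fold lower), Cyp1a1 in basal epidermis (at least 1.90-fold higher) and Cyp2s1 in ORS (1.88-fold lower).

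**Figure D2:**
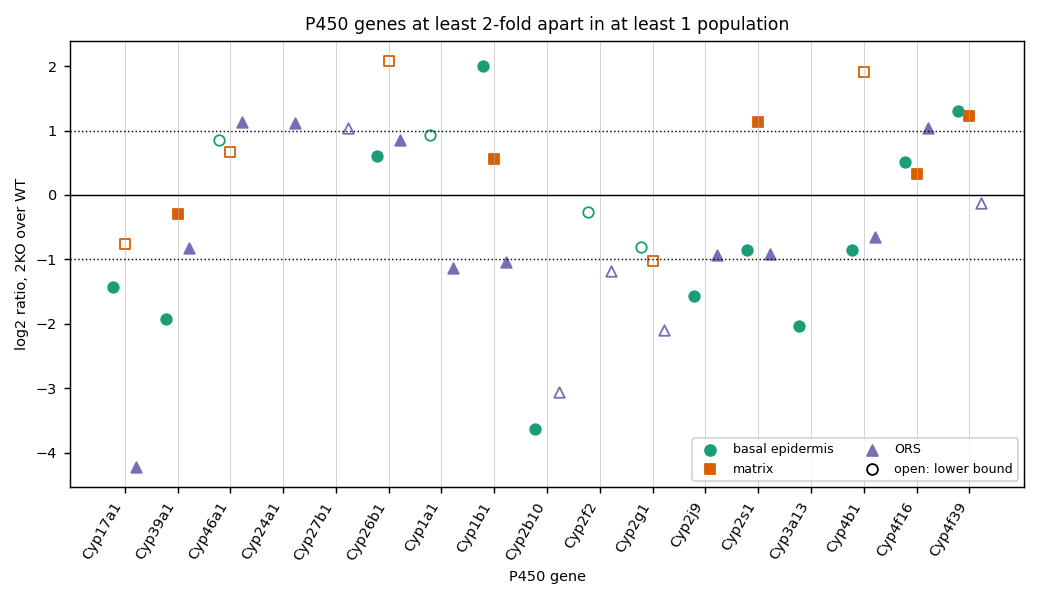
Each point is the log2 ratio of 2KO over WT for one P450 gene in one population (circles basal epidermis, squares matrix, triangles ORS), and open symbols are lower bounds. Dotted lines mark 2-fold. The lowest points are Cyp17a1 in ORS at -4.22 and Cyp2b10 in basal epidermis at -3.63.

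CG dinucleotides were counted in the promoters of the family, as a description with no test. CG is the site of DNA methylation in mammals, and promoters are commonly classed as CG-rich or CG-poor. RefSeq promoter windows of 300 bases (250 before and 50 after the start, build GRCm38.p6) were matched for 51 of the 72 genes. The 7 matched genes that were higher in 2KO in some population and lower in none held 2 to 31 CG (median 9), and the 5 matched genes that were lower and never higher held 0 to 6 (median 4). Cyp1b1, called both ways, held 16. The 11 matched genes above the floor on some array but never called held 1 to 26 (median 5), and all 51 matched genes had a median of 3. The 27 matched genes below the floor on every array had a median of 2, and the 32851 promoters of all genes a median of 7 with quartiles of 3 and 20. For Cyp27b1, Cyp46a1, Cyp4f16 and Cyp2s1 the higher call was lost under all 3 scalings, and the other 3 matched higher genes held 5 to 11 CG. The 2 called sets overlap, since Cyp27b1 and Cyp4f16, both higher, held 2 each. The lower genes Cyp17a1, Cyp2g1 and Cyp39a1 and the higher gene Cyp24a1 had no matched window. The following 4 windows, 5′ to 3′ with CG in capitals, are examples and do not cover the span of these counts. Lower in 2KO basal epidermis were Cyp2b10 (chr7:25897408-25897707, plus strand, 4 CG) and Cyp3a13 (chr5:137921570-137921869, minus strand, 1 CG). Higher were Cyp46a1 in ORS (chr12:108334066-108334365, plus strand, 31 CG), a call lost under all 3 scalings, and Cyp26b1 in matrix (chr6:84593761-84594060, minus strand, 9 CG). The printed pairs do not overlap in CG count, although the full sets do.
Cyp2b10: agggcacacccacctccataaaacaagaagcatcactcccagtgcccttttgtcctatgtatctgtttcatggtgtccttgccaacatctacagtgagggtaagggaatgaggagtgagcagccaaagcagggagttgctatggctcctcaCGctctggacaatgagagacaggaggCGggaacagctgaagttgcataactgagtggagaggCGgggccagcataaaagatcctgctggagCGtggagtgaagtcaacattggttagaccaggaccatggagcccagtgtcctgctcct
Cyp3a13: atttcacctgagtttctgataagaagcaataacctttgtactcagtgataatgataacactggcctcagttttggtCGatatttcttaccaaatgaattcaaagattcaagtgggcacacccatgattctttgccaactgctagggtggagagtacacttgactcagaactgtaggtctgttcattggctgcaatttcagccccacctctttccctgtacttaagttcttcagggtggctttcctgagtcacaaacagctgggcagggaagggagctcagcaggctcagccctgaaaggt
Cyp46a1: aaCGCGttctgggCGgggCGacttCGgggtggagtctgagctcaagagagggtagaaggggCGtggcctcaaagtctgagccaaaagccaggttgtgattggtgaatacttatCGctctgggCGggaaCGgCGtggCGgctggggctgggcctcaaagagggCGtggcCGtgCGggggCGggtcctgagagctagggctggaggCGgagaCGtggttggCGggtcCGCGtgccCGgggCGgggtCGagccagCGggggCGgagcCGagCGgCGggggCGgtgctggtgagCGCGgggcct
Cyp26b1: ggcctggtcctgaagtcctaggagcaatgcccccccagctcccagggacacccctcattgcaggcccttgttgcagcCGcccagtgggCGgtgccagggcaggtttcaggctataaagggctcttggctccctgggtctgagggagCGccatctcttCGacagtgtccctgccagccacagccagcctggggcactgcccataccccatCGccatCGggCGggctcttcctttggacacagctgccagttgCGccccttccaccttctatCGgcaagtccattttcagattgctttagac
These counts describe the windows only, and the arrays measured neither methylation nor histone marks.

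**Figure D3:**
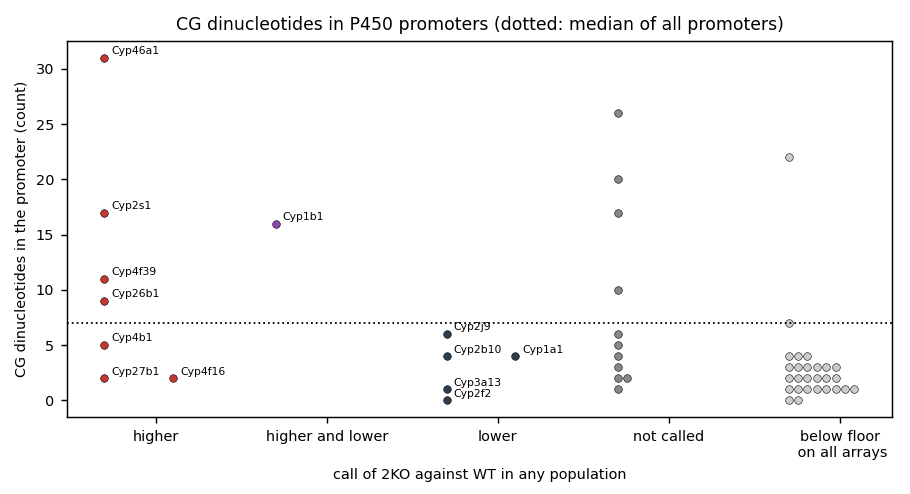
Each point is one P450 gene with a matched promoter, placed by its call of 2KO against WT and by the number of CG dinucleotides in the 300-base window. The lower genes lie between 0 and 6, the higher genes between 2 and 31 and the genes not called between 1 and 26. The dotted line is the median of all promoters, 7.

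Among steroid genes Cyp17a1, the hydroxylase and lyase on the way to androgens, had the widest difference between 2KO and WT in the family. It read 115 in 2KO ORS against 2137 in WT ORS, 104 against 281 in basal epidermis, and a value under the floor against 142 in matrix. It was 18.6-fold lower in ORS, the 4th lowest ratio of 11994 measured genes, and 2.70-fold lower in basal epidermis. In matrix it was at least 1.70-fold lower. All 3 2KO arrays were at 115 or less and all 3 WT arrays at 142 or more. Of the 31 P450 genes above the floor on at least 1 array, 3 had every 2KO array below every WT array and 5 had every 2KO array above, against 5.34% and 9.73% of all 12651 such genes. Signals under the floor were not raised to it for these counts. Of the 5, Cyp4f15 and Cyp4f18 were above the floor on 1 array each, so their order rests mostly on signals under it. On the 2KO ORS array the sebocyte markers Elovl3, Scd3 and Far2 were also lower, at 244, 90.9 and 246 against 2283, 810 and 3188 in WT ORS, and the part of sebocytes in the Cyp17a1 difference was not tested. In bulk samples fewer cells of a type and less RNA per cell cannot be told apart. Cyp21a1, the steroid hydroxylase needed for cortisol-like hormones, stayed between 51.7 and 110 on the 6 arrays, with no call.

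Of 14 matched partner genes of steroid synthesis and metabolism, 1 was higher and 1 lower in 2KO ORS and 0 were called in the other populations. Gata4, a factor of steroidogenic tissues, read 249 in 2KO ORS against 66.0 in WT (at least 2.99-fold higher), and Hsd11b1, which activates glucocorticoids, read 77.0 against 187 (at least 2.25-fold lower). The cholesterol carrier Star lay close to the floor on all arrays, with 104 in 2KO basal epidermis, 86.8 in its WT partner, 88.1 against 93.3 for the matrix pair and 105 against 94.4 for the ORS pair. The steroidogenic receptor Nr5a1 was below the floor on all 6 arrays.

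The cholesterol and bile acid genes gave calls in both directions. Cyp39a1, an oxysterol hydroxylase, read 362 in 2KO basal epidermis against 1378 in WT, 681 against 837 in matrix, and 489 against 862 in ORS. It was lower on each 2KO array than on its partner, and the 3.81-fold difference in basal epidermis reached 2-fold. In ORS it reached 2-fold with array medians made equal. Cyp46a1, the cholesterol hydroxylase best known from neurons, read 260.5 in 2KO ORS against 119 in WT (2.18-fold higher), 150.3 against 62.3 in basal epidermis and 132 against 53.3 in matrix, with lower bounds of 1.81-fold and 1.59-fold for the last 2 pairs. The 3 2KO values of Cyp46a1 lay above the 3 WT values, of which 2 were under the floor. Its ORS call was lost with each of the 3 scalings, at log2 ratios of 0.87 to 0.98. Cyp27a1, the mitochondrial sterol hydroxylase, read 674 in 2KO ORS against 547, 212 against 388 in basal epidermis and 85.8 against 11.0 in matrix, with no call. Cyp7b1, a second oxysterol hydroxylase, read 274 against 402 in basal epidermis and 155 against 196 in ORS, and was below the floor on both matrix arrays. Cyp8b1, the sterol hydroxylase of cholic acid synthesis, passed the floor only on WT ORS (95.5).

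Both vitamin D genes with a signal were called higher in 2KO ORS, where 8.16% of all measured genes were, and both were below the floor in the other populations. Cyp27b1 was above the floor in ORS only in 2KO, which fixes its direction. Cyp24a1, which inactivates vitamin D and is a classical target of its receptor, read 196 in 2KO ORS against 91.0 in WT (2.16-fold), and was below the floor on the other 4 arrays. Cyp27b1, which makes the active hormone, read 171 against 34.9 (at least 2.06-fold), and at most 79.7 elsewhere. Both folds fell short of 2 with array medians made equal, with hybridisation control scaling and with quantile normalization, at log2 ratios of 0.80 to 0.96. The other Cyp24a1 probe set was below the floor, at 52.1 against 29.8 in ORS. Of 5 matched partner genes, Trpv6, a vitamin D-regulated calcium channel, was 2.24-fold higher in ORS (193 against 86.3) and lower by at least 2.08-fold in the basal pair (61.9 against 173). The receptor Vdr itself had no call, at 3971 in 2KO ORS against 5490 in WT.

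Of the genes that clear retinoic acid, Cyp26b1 read 351 in 2KO matrix against 33.1 in WT matrix, 513 against 339 in basal epidermis and 380.5 against 210 in ORS. It was at least 4.22-fold higher in matrix and within 2-fold elsewhere, and each 2KO array was above its partner. WT matrix was the only array on which Cyp26b1 was below the floor. Cyp26a1 passed the floor only on 2KO matrix (102 against 48.3 in WT matrix, at least 1.23-fold). Of 12 matched retinoid partner genes 3 were higher and 1 lower in basal epidermis, 4 and 1 in matrix, and 3 and 2 in ORS. Crabp2, which carries retinoic acid to its receptors, read 1235 in 2KO matrix against 86.9 in WT matrix (14.2-fold) and 2506 against 600 in basal epidermis (4.18-fold). Crabp1, which carries it towards degradation, was higher in all 3 pairs, by at least 5.22-fold (basal), 2.97-fold (matrix) and at least 7.55-fold (ORS). Aldh1a3, a synthetic enzyme, was higher in the basal pair by 5.83-fold and in the ORS pair by 2.14-fold. Aldh1a2, a second such enzyme, read 176 in 2KO matrix against 3.20 in WT (at least 2.11-fold higher) and 195 against 18.8 in the ORS pair (at least 2.34-fold higher). Lrat, which stores retinol as esters, was higher by 3.70-fold in the matrix pair and lower by at least 3.14-fold in the ORS pair. The retinaldehyde reductase Dhrs3 was lower by 3.10-fold in the basal pair and by 2.15-fold in the ORS pair, and the retinol transporter Stra6 was 2.27-fold lower in matrix.

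The targets of the aryl hydrocarbon receptor (AHR), which senses dioxins and tryptophan products, included Cyp1b1, called in opposite directions in a pair of populations. Cyp1b1, which oxidises oestrogens and polycyclic hydrocarbons, read 367 in 2KO basal epidermis against 91.3 in WT (4.02-fold higher), 152 against 103 in matrix, and 221 against 452 in ORS (2.05-fold lower). Its second probe set read 107 against 39.1 in basal epidermis and 39.3 against 132 in ORS, the same directions but within 2-fold after the floor, and the remaining one was below the floor on all 6 arrays. Cyp1a1, which detoxifies the same hydrocarbons, read 158 against 79.4 in basal epidermis (at least 1.90-fold higher) and 98.2 against 215 in ORS (2.19-fold lower), and was below the floor on both matrix arrays. Cyp1a1 was measured in basal epidermis only through the 2KO array, which fixes its sign there, and it was not called. Cyp1a2 was below the floor on all arrays. Whether the ratios differ between populations was not tested.

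The core of the AHR response element, GCGTG, occurred once in each of the Cyp1a1 and Cyp1b1 promoter windows, as printed in Cyp1a1 and as its reverse complement CACGC in Cyp1b1. The window of Cyp1a2, the remaining AHR target of the family, held no match. Windows of other P450 genes held the core too, such as those of Cyp46a1 (4 matches) and Cyp2b10 (1 on each strand). Of all 32851 windows 32.4% held GCGTG on either strand. The windows are shown 5′ to 3′ with the match in capitals, for Cyp1a1 (chr9:57697363-57697662, plus strand) and Cyp1b1 (chr17:79715012-79715311, minus strand).
Cyp1a1: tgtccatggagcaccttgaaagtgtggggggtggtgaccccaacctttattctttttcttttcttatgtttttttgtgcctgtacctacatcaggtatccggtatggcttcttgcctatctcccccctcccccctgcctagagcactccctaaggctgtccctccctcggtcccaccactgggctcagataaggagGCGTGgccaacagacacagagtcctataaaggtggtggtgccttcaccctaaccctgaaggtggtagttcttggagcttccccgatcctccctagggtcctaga
Cyp1b1: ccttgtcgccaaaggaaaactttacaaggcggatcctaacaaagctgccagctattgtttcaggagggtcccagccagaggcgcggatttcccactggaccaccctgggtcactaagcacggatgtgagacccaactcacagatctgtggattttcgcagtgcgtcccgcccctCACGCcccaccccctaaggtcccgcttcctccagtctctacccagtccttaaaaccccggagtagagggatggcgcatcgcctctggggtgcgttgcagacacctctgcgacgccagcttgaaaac
A match of these letters describes the window and does not show that AHR binds there.

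Among 11 matched genes of AHR and the other xenobiotic receptors, Ahr read 2413 in 2KO ORS against 6113 in WT (2.53-fold lower), 1103 against 452 in matrix (2.44-fold higher) and 5150 against 8094 in basal epidermis (1.57-fold lower). Tiparp, another AHR target, read 5427 in 2KO matrix against 2170 in WT, past 2-fold, 14941 against 14892 in basal epidermis, and 11040 against 7036 in ORS (1.57-fold higher), and Ahrr was below the floor on all arrays. Ppara, the fatty acid receptor that induces Cyp4 genes in liver, read 67.9 in 2KO against 246 in WT basal epidermis (at least 2.96-fold lower) and 81.6 against 404 in the ORS pair (at least 4.86-fold lower). The counts of the list were 0 higher and 1 lower of 7 measured in basal epidermis, 2 and 0 of 7 in matrix, and 0 and 2 of 7 in ORS. Nr1i3 (CAR) and Nr1i2 (PXR), the receptors through which drugs induce Cyp2b and Cyp3a genes in liver, were below the floor on all 6 arrays, with Nr1i3 at 2.80 to 6.04.

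Cyp2b10, in liver the standard target of Nr1i3, was the most strongly lowered gene of the Cyp2 group. It read 109 in 2KO basal epidermis against 1348 in WT (12.4-fold lower), 58.6 against 692 in ORS (at least 8.32-fold lower), and 11.3 against 28.6 in matrix, both below the floor. Its other 2 probe sets gave the same calls, at 55.9 and 77.6 against 957 and 1191 in basal epidermis and 10.9 and 19.5 against 470 and 624 in ORS. Probes of Cyp2b genes can share sequence. The paralogs Cyp2b9 and Cyp2b13 were below the floor on all arrays, and Cyp2b19, the Cyp2b enzyme of keratinocytes, passed it only on WT basal epidermis (115, against 38.9 in 2KO).

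Cyp2g1, known from the olfactory mucosa, read 48.6 in 2KO ORS against 357 in WT (at least 4.29-fold lower), 61.4 against 169 in matrix (at least 2.03-fold lower) and 14.1 against 146 in basal epidermis (at least 1.76-fold lower). All 3 2KO values were below the floor and all 3 WT values above it. Cyp2f2, the enzyme of airway club cells, read 56.8 against 188 in ORS (at least 2.26-fold lower), 62.0 against 99.9 in basal epidermis, and 60.3 against 29.2 in matrix. Cyp2j9 read 104 against 311 in basal epidermis (2.98-fold lower), 113 against 217 in ORS (1.92-fold lower) and 66.3 against 44.1 in matrix. Its paralog Cyp2j6 had no call, at 319 against 518 in basal epidermis and 221 against 218 in ORS. Cyp2s1, an enzyme of epithelia that acts on retinoids and eicosanoids, read 256 in 2KO matrix against 116 in WT (2.20-fold higher), 164 against 296 in basal epidermis and 669 against 1261 in ORS, the last 2 lower by less than 2-fold. The matrix call of Cyp2s1 was lost under all 3 scalings, at log2 ratios of 0.51 to 0.96.

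**Figure D4:**
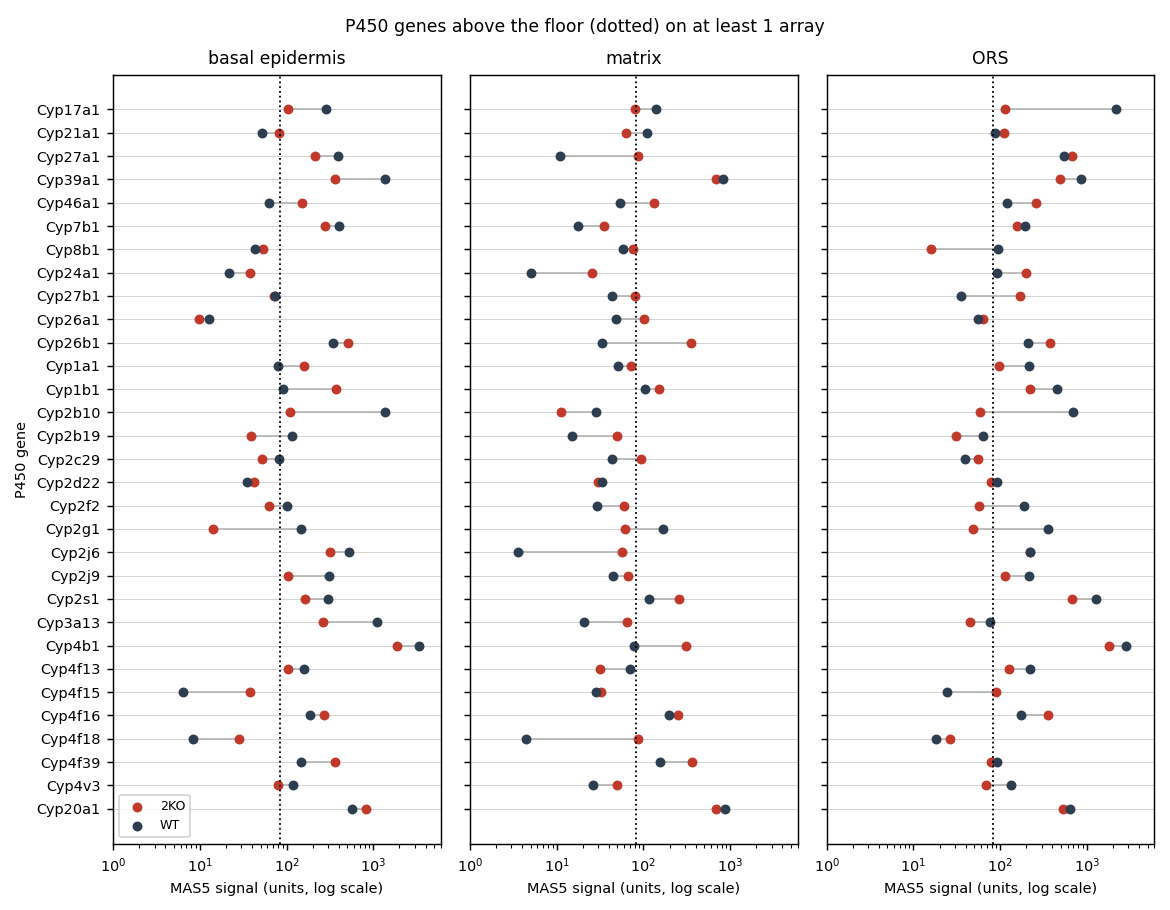
MAS5 signals on a log axis for the 31 P450 genes above the floor (dotted line) on at least 1 array, with 2KO in red and WT in dark blue, 1 panel per population. The widest gaps with WT to the right are Cyp17a1 in ORS and Cyp2b10 in basal epidermis and ORS.

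Several of the lower genes are neighbours. Cyp2s1, Cyp2b10, Cyp2b19, Cyp2g1 and Cyp2f2 belong to one P450 cluster of mouse chromosome 7, which in the RefSeq gene order runs from Cyp2s1 to Cyp2t4 and holds 13 genes that meet the naming rule, 8 of them with a probe set of their own. One more probe set names both Cyp2a5 and Cyp2a4 and was below the floor on all arrays. In basal epidermis 5 of these were measured and all 5 were lower in 2KO, at log2 ratios of -3.63 to -0.26, with Cyp2b10 alone past 2-fold. In ORS 4 were measured and all 4 were lower, at -3.06 to -0.91, with 3 past 2-fold. Among all measured genes 4.09% were at least 2-fold lower in basal epidermis and 4.75% in ORS, and the share below 0 was not counted. In matrix Cyp2g1 was lower and Cyp2s1 higher, at -1.02 and 1.14, and the call of Cyp2s1 was lost under all 3 scalings. There were 20 other protein-coding genes lying among the P450 genes or within 8 genes of Cyp2s1 or Cyp2f2. In basal epidermis 11 of these were measured, 6 below 0 and 5 above (-0.91 to 0.63). In ORS 12 were measured, 5 below 0 and 7 above (-0.55 to 0.91), and 0 reached 2-fold in either population. In matrix 11 were measured, 3 below 0 and 8 above. There 1 of them (Bckdha) was at least 2-fold lower in 2KO and 1 (Itpkc) at least 2-fold higher. Cyp2b19, Cyp2g1 and Cyp2f2 in basal epidermis, and Cyp2b10, Cyp2g1 and Cyp2f2 in ORS, were under the floor in 2KO, which fixes their sign there. The cluster was picked out after the values were seen.

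**Figure D5:**
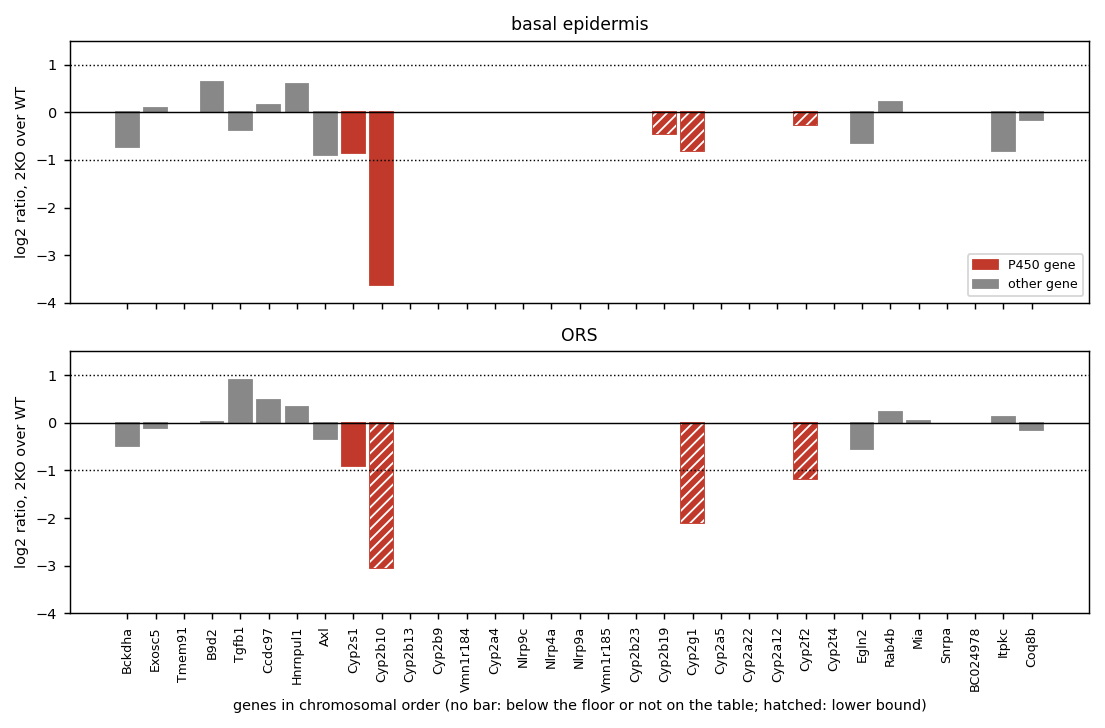
Log2 ratios of 2KO over WT for genes in their order along the chromosome 7 P450 cluster and its flanks, in basal epidermis (top) and ORS (bottom), with P450 genes in red, other genes in grey and lower bounds hatched. Red bars run from -3.63 to -0.26 in basal epidermis and from -3.06 to -0.91 in ORS. The sign of a hatched red bar is fixed because the gene was above the floor only in WT.

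Cyp3a13, the one measured member of the drug-oxidising Cyp3a family, read 265 in 2KO basal epidermis against 1092 in WT (4.12-fold lower). On the other 4 arrays it was below the floor, at 44.4 against 75.9 in ORS and 65.0 against 20.6 in matrix.

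The Cyp4 genes hydroxylate fatty acids at the end of the chain. Of the 13, 7 were above the floor on at least 1 array and 3 were called, a count not set against all genes. Cyp4b1 read 311 in 2KO matrix against 77.4 in WT matrix (at least 3.74-fold higher), 1849 against 3345 in basal epidermis and 1792 against 2813 in ORS, the last 2 lower by 1.81-fold and 1.57-fold. Cyp4f39, whose human counterpart makes the very long hydroxylated fatty acids of barrier ceramides, read 363 against 148 in basal epidermis (2.46-fold higher), 366 against 157 in matrix (2.33-fold higher) and 78.1 against 91.2 in ORS. Its matrix call was lost with array medians made equal and with hybridisation control scaling, at log2 ratios of 0.94 and 0.59. Cyp4f16 read 354 against 173 in ORS (2.05-fold higher, and under 2-fold with each of the 3 scalings), 267 against 188 in basal epidermis and 249 against 199.5 in matrix, above its partner each time. Cyp4f13 had no call, at 126 against 222 in ORS and 105 against 158 in basal epidermis, but it was at least 2-fold lower in ORS with array medians made equal and with quantile normalization. Cyp4v3, Cyp4f15 and Cyp4f18 passed the floor on 1 or 2 arrays without a call. The orphan Cyp20a1, above the floor on all 6 arrays, read 825 against 562 in basal epidermis, 689 against 866 in the matrix pair and 534 against 645 in the ORS pair, within 2-fold throughout.

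Of 12 matched genes of lipoxygenase, cyclooxygenase and epoxide metabolism 0 were called in basal epidermis, 3 were higher and 1 lower in matrix, and 0 higher and 1 lower in ORS. Ephx1, the epoxide hydrolase that follows P450 oxidation of xenobiotics, read 1954 in 2KO matrix against 338 in WT (5.77-fold higher), Ptgs2 was 3.11-fold and Ptges at least 3.92-fold higher there, and Alox12 was 3.05-fold lower. Ephx2, which hydrolyses the epoxides of fatty acids, read 302 against 786 in ORS (2.61-fold lower). Of 8 matched electron donors and haem partners 0 were called in basal epidermis and matrix, and 2 were lower in ORS. These were Cyb5b, the mitochondrial cytochrome b5, at 1666 against 3842 (2.31-fold), and the haem-degrading Hmox1 at 84.9 against 505 (5.95-fold). Fdx1, which feeds electrons to mitochondrial P450 enzymes, stayed within 2-fold (1851 against 2082 in ORS).

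Among the WT populations the matrix had 0 P450 genes that were at least 2-fold higher than in either of the others. In WT matrix against WT basal epidermis 0 were higher and 9 lower of 21 measured (11.3% and 13.8% of all genes), and against WT ORS 0 were higher and 14 lower of 24 (8.60% and 13.9%). Above the floor on both arrays, 0 were higher and 1 lower of 8 against basal epidermis (11.0% and 12.0% of all such genes), and 0 higher and 4 lower of 9 against ORS (8.54% and 12.0%). In WT ORS against WT basal epidermis 5 were higher and 3 lower of 26 (5.88% and 4.15%), and above the floor on both 4 were higher and 2 lower of 18 (5.12% and 3.87%). Cyp4b1 stood out, at 77.4 in WT matrix against 3345 in WT basal epidermis and 2813 in WT ORS, with lower bounds of 40.2-fold and 33.8-fold on these differences. At least 2-fold richer in WT ORS than in both other WT populations (2.19% of all genes) were Cyp17a1 (7.60-fold over the nearer one), Cyp1b1 (4.37-fold), Cyp2s1 (4.25-fold), Cyp1a1 (at least 2.58-fold) and Cyp2g1 (2.12-fold). Cyp3a13 (at least 13.1-fold), Cyp2j6 (2.37-fold) and Cyp7b1 (2.06-fold) were richer by 2-fold or more in WT basal epidermis than in both others (1.98% of all genes).

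The same comparisons were made among the 2KO populations. At least 2-fold over both other populations were Cyp27a1 (3.18-fold), Cyp2s1 (2.62-fold), Cyp24a1 (at least 2.36-fold) and Cyp27b1 (at least 2.06-fold) in 2KO ORS (1.88% of all genes), and Cyp3a13 (at least 3.19-fold) in 2KO basal epidermis (1.67%). Cyp2s1 in ORS and Cyp3a13 in basal epidermis were thus in both genotypes' lists, and Cyp17a1, Cyp1b1, Cyp1a1 and Cyp2g1 were in that of WT ORS alone, a difference between lists that was not tested. In 2KO matrix against 2KO ORS 1 was higher (Cyp4f39, at least 4.40-fold) and 6 lower of 23 measured (5.20% and 8.61% of all genes), or 0 and 3 of 9 above the floor on both (4.76% and 8.34%). In 2KO matrix against 2KO basal epidermis 0 were higher and 6 lower of 21 (6.90% and 7.29%), or 0 and 3 of 10 above the floor on both (6.14% and 7.02%), with Cyp4b1 at 311 against 1849 (5.94-fold lower). In 2KO ORS against 2KO basal epidermis 4 were higher and 2 lower of 22 (6.73% and 4.32%), or 2 and 0 of 15 above the floor on both (6.06% and 4.18%).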

How the data were processed

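RNA of FACS-sorted mouse skin cells was labelled by in vitro transcription from the 3-prime end and measured on 6 Affymetrix mouse arrays, 1 per genotype and population, per the labels' protocols. The authors' files hold 1 linear intensity (MAS5 signal) per probe set; the tool is named in the submitters' processing notes, and the series text adds that images were background-subtracted. Its version was not given in the sources used here. Each array had a 2% trimmed mean of 500.0, so the authors' scaling fixed one total per array and only relative differences can be seen. Array medians were 72.6 to 99.0. No further scaling was applied in the main setting. Control probe sets (64 of 45101) and probe sets naming several genes, 4 of them of P450 genes, were left out. Names came from the platform annotation, and all 72 gene IDs were found in RefSeq's table of GRCm38.p6, used for gene order and promoters. Calls were made in Python 3.11.15 with pandas 2.3.3 and tested on simulated data. Genes named were Cyp17a1, Cyp2b10, every called member, the 10 with the highest mean signal, up to 5 enriched in each WT population, and up to 4 called partners per list and population; others were named after their values were seen. The members and lists were chosen with earlier results of these data known. Partner lists covered electron donors, xenobiotic receptors, retinoid, vitamin D, steroid and eicosanoid genes, and marker lists the 3 populations and 7 other cell types. Alternatives were 3 scalings, 2 floors and 2 choices of probe set. The number of arrays limits the precision.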

Additional observations from a re-analysis of the deposited data

Results flagged for a closer look

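Cyp1b1 went in opposite directions in a pair of populations. Its log2 ratio of 2KO over WT was 2.01 in basal epidermis and -1.03 in ORS, each from 1 array per genotype, and the difference between the populations was not tested. With the mean over its 3 probe sets, the ratios were 0.32 and -0.27, within 2-fold.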

How the results depend on the processing

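Within a population no paired analysis was possible, because each group had 1 array and the labels give no replicate numbers. The values come from no test. A fit of genotype over all 6 arrays with population as a block was not run. Of 22 calls of a P450 gene in a population, 13 kept their call under each of the 7 alternatives that measured them, and 0 were reversed. Of 137 values, 22 lost the call: the ORS calls of Cyp24a1, Cyp27b1, Cyp46a1 and Cyp4f16 and the matrix call of Cyp2s1 under all 3 scalings, the matrix call of Cyp4f39 under 2 of them, Cyp1b1 in both populations, Cyp24a1 and Cyp4f16 with the mean over probe sets, and Cyp2b10 in ORS with the higher floor. The median log2 ratio of all measured genes, 0.04, 0.03 and 0.01 in basal epidermis, matrix and ORS, was -0.07, -0.24 and -0.23 with array medians made equal and -0.06, -0.58 and -0.14 with hybridisation control scaling.

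Of 84 counts under alternatives 54 stayed within 1.5 times, and the cause of the other changes was not tested except that a floor changes how many genes are measured. After common median scaling 2 genes were higher in 2KO matrix, 0 higher and 10 lower in 2KO ORS. After scaling to the hybridisation controls 2 were higher and 2 lower in 2KO matrix, and 0 higher in 2KO ORS. With that scaling 1 was higher in WT matrix than in WT basal epidermis (2917 of all 11681 measured genes) and 1 than in WT ORS (2032 of 11865). After quantile normalization 0 were higher in 2KO ORS. With the mean over probe sets 1 of 20 measured was higher in 2KO basal epidermis (564 of all 10294 genes) and 2 of 24 in 2KO ORS (711 of 10842). With the floor at the 25th percentile (21.2), 5 of 51 measured were higher in 2KO basal epidermis (1637 of all 15658 genes). In 2KO matrix 15 were higher and 2 lower of 54 (2149 and 436 of 15633), and in 2KO ORS 11 were lower of 56 (935 of 15983). In WT matrix 3 were higher and 15 lower of 48 than in WT basal epidermis (1820 and 2188 of 15360). In WT ORS 14 were higher and 5 lower of 49 than in WT basal epidermis (1351 and 765 of 15527). In WT matrix 25 of 49 were lower than in WT ORS (2421 of 15540). With the floor at the 75th percentile (465), 0 were higher and 3 lower of 7 measured in 2KO basal epidermis (235 and 235 of all 7238 genes). In 2KO matrix 0 were higher and 0 lower of 2 (311 and 79 of 7311), and in 2KO ORS 0 and 1 of 7 (337 and 282 of 7454). In WT matrix 3 of 6 were lower than in WT basal epidermis (842 of 7563), and 3 of 7 lower than in WT ORS (760 of 7577). In WT ORS 2 were higher and 1 lower of 9 than in WT basal epidermis (277 and 246 of 7230). Leaving out probe sets that can cross-hybridise changed no count by more than 1.5 times.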
